A study of Homo sapiens with 11 samples.

Results

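The comparison described here set macrophages against monocytes while both were under the same glucocorticoid. The cells were THP-1, an established human monocytic leukaemia line, treated for 6 h with 100 nM dexamethasone (Dex), a synthetic agonist of the glucocorticoid receptor. The macrophage group (Mac_Dex, replicates 1 and 5) had been differentiated with the phorbol ester PMA for 3 h and left to recover for 24 h. The monocyte group (Mono_Dex, replicates 2, 3 and 6) had not been differentiated. Both groups had spent 24 h in charcoal-stripped medium before Dex. The matching groups with vehicle in place of Dex, Mac_Vehicle and Mono_Vehicle, held replicates 1, 3 and 5 and replicates 1, 3 and 6. These 5 Dex samples are part of a series of 11. The series design names 12 samples. The authors left out a further Dex-treated macrophage sample, replicate 2, because it grouped with the vehicle macrophages and had no rise of FKBP5. The Mac_Dex group of 2 was thus in part chosen on that gene and on being unlike the vehicle macrophages. THP-1 is a single leukaemic line, so its macrophage state is a model of the differentiated cell and carries no variation between donors. Whether the replicates are separate cultures is not in the labels, so the p-values reflect spread among these samples that may be technical.

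Expression was measured with the NanoString nCounter, in which barcoded probes bind RNA directly and are counted by imaging, with no amplification, from 50 ng of total RNA. The table held 594 endogenous probes for immune genes. Genes with a mean of at least 20 units of normalized signal in Mac_Dex or Mono_Dex were compared, which gave 364 genes. Of these, 306 reached 20 units in both groups, 46 in Mac_Dex alone and 12 in Mono_Dex alone. The genes just inside that limit were IDO1 at 20.1, TLR9 at 21.3 and CCBP2 at 21.4 units, and those just outside were CD27 at 19.2, PDCD1LG2 at 18.4 and CXCL13 at 18.1 units. The other 230 probes were under 20 units in both groups and were not tested.

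Monocytes circulate in blood and can become macrophages in tissue, where they adhere, engulf particles and dead cells, and release cytokines and chemokines. PMA activates protein kinase C and drives THP-1 cells to stop dividing, attach and take on macrophage features. Glucocorticoids bind a nuclear receptor that raises genes such as FKBP5 and CD163 and lowers many inflammatory genes.

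As deposited, 228 of the 364 genes were higher in Mac_Dex than in Mono_Dex (62.6%) and 65 were lower (17.9%), with limma and an adjusted p under 0.05, so 80.5% of the genes tested were called and 71 were not. The groups did not overlap for 316 genes (86.8%), which include each of the 293 called. Among called genes at 20 units or more in both groups, 118 were at least 2-fold higher and 26 at least 2-fold lower. The median log2 difference over all tested genes was 0.75. In bulk samples, a change in the share of cells of one kind and a change in RNA per cell cannot be told apart.

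The direction of many genes depended on how samples were scaled. Summed signal was 831833 to 889658 units in the Mac_Dex samples and 413358 to 420466 units in the Mono_Dex samples. The authors' scaling factor, read from the regular steps of the low values, was 1.47 to 1.52 in Mac_Dex and 0.737 to 0.966 in Mono_Dex. Dividing by it gave sums of 565680 to 585686 in Mac_Dex and 429960 to 560865 in Mono_Dex. After each sample was centred on its median, 145 genes were called higher (39.8%) and 164 lower (45.1%), and the median difference was -0.07. The split of called genes was thus 77.8% higher as deposited, against 46.9% after median-centring, 67.4% after scaling to the housekeeping genes, 43.7% after quantile normalization and 48.9% with the authors' factor undone. Of the 228 genes higher as deposited, 173 (75.9%) kept their sign after median-centring and 145 kept their call, while 55 turned and 35 of those were called lower. Over all tested genes, 265 kept their sign (72.8%). Each of the 65 genes lower as deposited was called lower under each of the 4 other scalings, and 128 of the 228 higher genes were called higher under each of them. All 4 moved the median difference down from 0.75, to -0.07, 0.48, -0.18 and -0.06 in the order given above. A gene already lower could therefore hardly lose its call, so these scalings check the higher genes and say little of the lower ones. In the results that follow, a gene named as higher or lower kept its call under each of the 4 other scalings unless an exception is given beside it. Counts for a list are to be read beside 62.6% higher and 17.9% lower over all tested genes as deposited. After median-centring those shares were 39.8% and 45.1%.

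**Figure D1:**
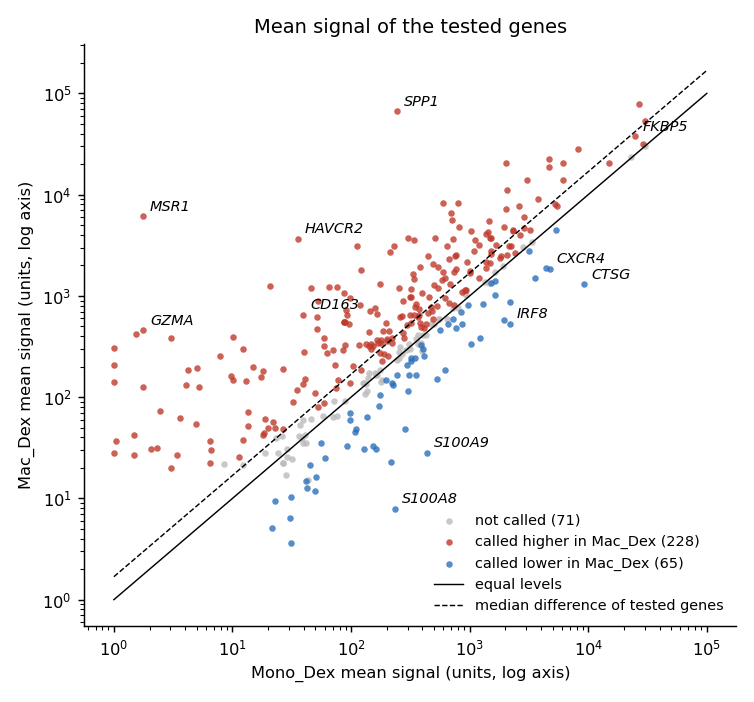
Mean normalized signal of the 364 tested genes in Mac_Dex (vertical axis) against Mono_Dex (horizontal axis), both on log scales, with 1 point per gene coloured by its call. The solid line marks equal levels and the dashed line the median log2 difference of 0.75, above which fewer genes lie than above the solid line.

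The 15 housekeeping genes show what the deposited scale holds level. RPL19, a ribosomal protein, had 30608 and 30102 units in Mac_Dex, against 30639, 30471 and 29638 units in Mono_Dex. EEF1G, a translation elongation factor subunit, had 22996 and 23641 units in Mac_Dex, against 22665, 22718 and 24044 units in Mono_Dex. For both genes the groups overlapped, with log2 differences of 0.01 that did not pass the test. The list had a median of 0.13, with 6 genes higher and 2 lower, TBP and POLR1B. ALAS1, the first enzyme of haem synthesis, was 3.3-fold higher and kept that call under each other scaling. After median-centring 2 of the 15 were higher and 12 lower, with a median of -0.70, so the list changed direction with that scaling, and GAPDH, GUSB, OAZ1 and SDHA, higher as deposited, turned sign. GAPDH, at 0.13 as deposited, lost its call without any one of the 5 Dex samples (log2 0.11 to 0.15, adjusted p 0.0505 to 0.139).

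The labelled cell types were checked against markers. ITGAM, the integrin chain CD11b of myeloid cells, averaged 1072 units in Mac_Dex and 86.7 units in Mono_Dex, and CSF1R, the receptor for the macrophage growth factor, 619 and 52.0 units. ITGAX, the integrin chain CD11c, averaged 3599 units in Mac_Dex and 341 units in Mono_Dex. CD14, the lipopolysaccharide co-receptor, was low in both, at 43.9 units in Mac_Dex and 18.3 units in Mono_Dex. MRC1, the mannose receptor of many tissue macrophages, was at the lowest values in both groups, 2.09 and 1 units, and MARCO, another scavenger receptor, averaged 60.4 and 18.9 units. Of 19 T-cell markers 17 were under 20 units in both groups, as were 8 of 11 B-cell and 19 of 22 NK-cell markers. CD3D, CD3E, CD8A and MS4A1 were at or below 4.23 units in each Dex sample. The summed T-cell markers were 195 to 247 units in Mac_Dex and 78.5 to 109 units in Mono_Dex, B-cell markers 508 to 551 and 80.4 to 149 units, and NK-cell markers 3756 to 3839 and 2205 to 2393 units. In Mac_Dex these sums came largely from IL7R, CD22 and NCAM1.

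Surface receptors for uptake were much higher in the macrophages. MSR1, the class A scavenger receptor that takes up modified lipoproteins, had 6074 and 6145 units in Mac_Dex, against 1, 1 and 3.26 units in Mono_Dex. The monocyte values lie at the lowest values of the table, so the gene was measured in one state and not above background in the other. The ratio was at least 305-fold, taking 20 units as the lowest usable mean, and the log2 difference was 11.21 ± 0.27 (SE, adjusted p = 3.42e-14). CD163, the haemoglobin scavenger receptor, had 597 and 709 units in Mac_Dex, against 37.3, 38.0 and 42.6 units in Mono_Dex. Both groups held it above 20 units and did not overlap, with a ratio of 16.6-fold (adjusted p = 2.86e-10). CD209, a lectin that binds mannose-rich glycans, averaged 301 ± 3.61 units in Mac_Dex and 12.4 ± 6.24 units in Mono_Dex (SD, n = 2 and n = 3), at least 15-fold higher. Of 7 scavenger and lectin receptors tested, 6 were higher and CLEC5A was not called, with a median of 3.88 beside 0.75 over all tested genes. After median-centring 6 were still higher and 1 lower.

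Adhesion and matrix genes moved in the same direction as a group. SPP1, which encodes the secreted matrix protein osteopontin, had 66654 and 66246 units in Mac_Dex, against 239, 252 and 235 units in Mono_Dex. The 2 macrophage samples were nearly alike and far above each monocyte sample. The ratio was 274-fold (log2 8.10 ± 0.08 SE, adjusted p = 6.38e-18). ITGA6, the laminin-binding integrin chain, had 1157 and 1253 units in Mac_Dex, against 46.1, 48.6 and 44.3 units in Mono_Dex, a ratio of 26.0-fold. ICAM1, the ligand of leukocyte integrins, averaged 255 ± 66.0 units in Mac_Dex and 7.85 ± 2.45 units in Mono_Dex (SD, n = 2 and n = 3), at least 12.8-fold higher. Of 20 genes in the list, 19 were higher, none was lower and ICAM3 was not called, with a median of 2.28. After median-centring 14 were higher and 3 lower.

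**Figure D2:**
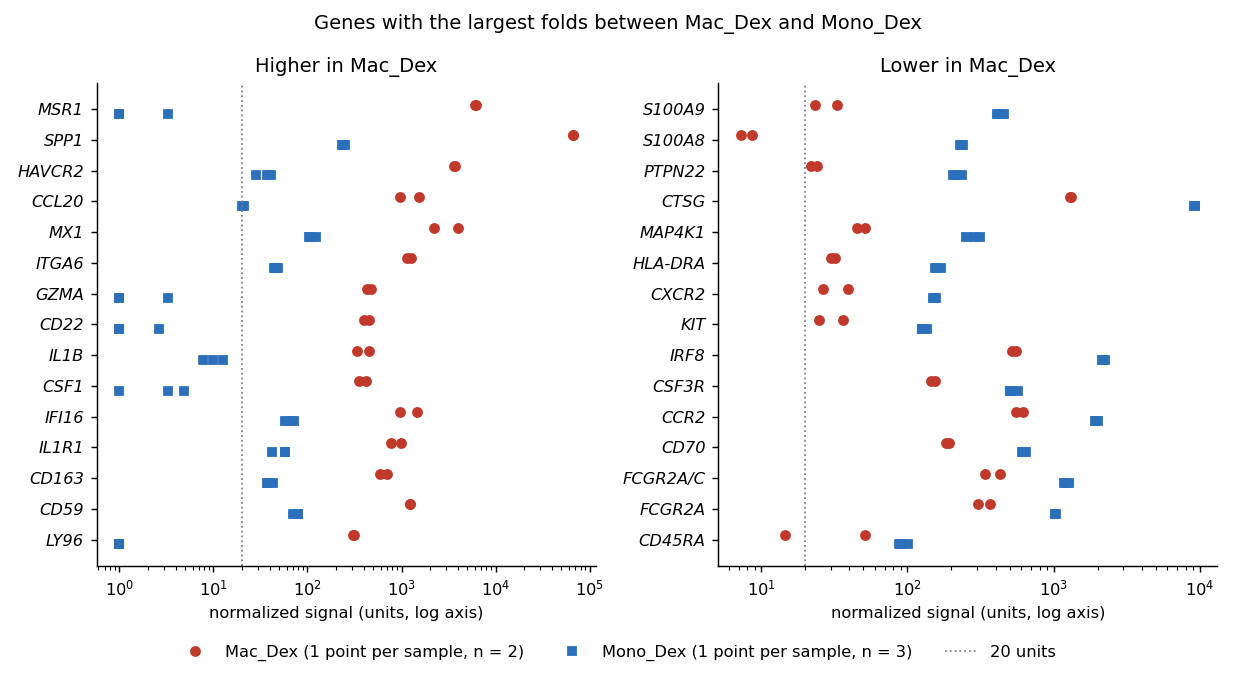
Normalized signal (log axis) in each Mac_Dex sample (circles, n = 2) and each Mono_Dex sample (squares, n = 3) for the 15 genes with the largest folds higher in Mac_Dex and the 15 with the largest folds lower, with a dotted line at 20 units. The groups do not overlap for any of the 30 genes, and MSR1, GZMA, CD22, IL1B, CSF1 and LY96 lie under 20 units in each Mono_Dex sample.

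Checkpoint and co-receptor genes were also among the largest differences. HAVCR2, the inhibitory receptor TIM-3, had 3572 and 3739 units in Mac_Dex, against 37.3, 28.3 and 40.9 units in Mono_Dex. The macrophage samples stand together far above the monocyte samples, at 103-fold (adjusted p = 4.19e-15). CD22, a sialic acid-binding lectin known from B cells, had 398 and 449 units in Mac_Dex, against 2.62, 1 and 1 units in Mono_Dex. PAX5, a regulator that defines B cells, averaged 39.3 units in Mac_Dex and 38.9 units in Mono_Dex and was not called. CD70, the ligand of CD27, went the other way and averaged 187 ± 6.29 units in Mac_Dex and 623 ± 22.2 units in Mono_Dex (SD, n = 2 and n = 3), 3.34-fold lower. Of 16 costimulation and checkpoint genes 9 were higher and 4 lower, with a median of 0.63, which is under that of all tested genes, and after median-centring 6 were higher and 8 lower.

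Chemokine ligands were mostly higher in the macrophages. CCL20, which attracts cells bearing CCR6, had 970 and 1546 units in Mac_Dex, against 21.1, 20.6 and 20.4 units in Mono_Dex. The monocyte samples sit at the 20-unit limit, and the ratio was 60.9-fold (adjusted p = 1.97e-07). IL8, the neutrophil chemokine now named CXCL8, had 2203 and 3277 units in Mac_Dex, against 192, 210 and 235 units in Mono_Dex, a ratio of 12.9-fold. CCL5, which attracts T cells and monocytes, averaged 3754 ± 338 units in Mac_Dex and 509 ± 18.6 units in Mono_Dex (SD, n = 2 and n = 3), 7.37-fold higher. CCL22, an attractant of CCR4-bearing cells, was lower, at 11.7 and 49.5 units on average, a difference of at least 2.47-fold. Of 14 chemokine ligands 11 were higher and 1 lower, with a median of 2.37, and after median-centring 8 were higher and 3 lower.

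The receptors that respond to such chemoattractants were more often lower. CCR2, the receptor that draws monocytes out of the marrow and into tissue, had 551 and 613 units in Mac_Dex, against 2013, 1938 and 1922 units in Mono_Dex. Its groups are well separated, with a 3.36-fold lower mean (log2 -1.75 ± 0.06 SE, adjusted p = 3.12e-12). CXCR2, a receptor for CXCL8, had 26.3 and 39.2 units in Mac_Dex, against 155, 157 and 150 units in Mono_Dex, 4.71-fold lower. CXCR4, which retains cells in the marrow and which glucocorticoids can raise, averaged 1850 ± 66.4 units in Mac_Dex and 4728 ± 76.1 units in Mono_Dex (SD, n = 2 and n = 3), 2.56-fold lower. Of the 7 tested receptors 4 were lower and 3 higher, with a median of -1.35. The 3 higher ones were CMKLR1, CCRL2 and CCR1, and CCR1 kept that call under 1 of the 4 other scalings.

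Inflammatory cytokine genes split. IL1B, the fever-inducing cytokine, had 340 and 452 units in Mac_Dex, against 7.78, 10 and 12.7 units in Mono_Dex. All 3 monocyte samples were below 20 units, and the ratio was at least 19.8-fold (adjusted p = 3.84e-12). TNF, an early cytokine of the inflammatory response, had 217 and 402 units in Mac_Dex, against 258, 277 and 243 units in Mono_Dex. The macrophage samples fell on either side of the monocyte range, the log2 difference was 0.19 ± 0.19 (SE, adjusted p = 0.373), and the sign turned under each of the 4 other scalings and without replicate 5. CSF1, the macrophage growth factor, had 353 and 414 units in Mac_Dex, against 4.83, 1 and 3.26 units in Mono_Dex, at least 19.2-fold higher, and its receptor CSF1R was 11.9-fold higher. TGFB1, an anti-inflammatory cytokine, averaged 3674 ± 109 units in Mac_Dex and 726 ± 14.7 units in Mono_Dex (SD, n = 2 and n = 3). Of 11 inflammatory cytokine genes 5 were higher and 2 lower, MIF and LTA, with a median of 0.24, and after median-centring 4 were higher and 6 lower. Without Mac_Dex replicate 1 the MIF call was lost, at -0.16 (limma adjusted p = 0.117).

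Interleukin 1 family genes also went in both directions. IL1R1, the signalling receptor, had 773 and 992 units in Mac_Dex, against 57.9, 41.9 and 57.1 units in Mono_Dex, a ratio of 16.9-fold. IL1RN, the receptor antagonist, averaged 180 ± 50.5 units in Mac_Dex and 18.2 ± 4.88 units in Mono_Dex (SD, n = 2 and n = 3), at least 8.98-fold higher. NLRP3, the sensor of an inflammasome, averaged 1908 ± 216 units in Mac_Dex and 385 ± 36.4 units in Mono_Dex, 4.96-fold higher. CASP1, the protease that cleaves the interleukin 1 beta precursor, averaged 482 ± 45.8 units in Mac_Dex and 768 ± 25.6 units in Mono_Dex, 1.59-fold lower. The adaptor PYCARD, with 330 and 391 units, and the receptor accessory chain IL1RAP, with 166 and 307 units, were lower as well. The PYCARD call was lost without any one of Mac_Dex replicates 1 and 5 and Mono_Dex replicates 2 and 6, with adjusted p from 0.0543 to 0.0769 and log2 differences from -0.25 to -0.22. The list counted 5 higher and 3 lower of 10, with a median of 1.77.

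Sensors of microbial products went in both directions. LY96, the MD-2 subunit that lets TLR4 bind lipopolysaccharide, had 301 and 316 units in Mac_Dex, against 1 unit in each Mono_Dex sample. That is at least 15.4-fold higher, with the monocyte value at the lowest value of the table. TLR2, the receptor for bacterial lipopeptides, had 5215 and 5869 units in Mac_Dex, against 1464, 1458 and 1433 units in Mono_Dex, a ratio of 3.82-fold (adjusted p = 1.04e-12). TMEM173, the cytosolic DNA pathway adaptor STING, averaged 1511 ± 90.3 units in Mac_Dex and 3548 ± 120 units in Mono_Dex (SD, n = 2 and n = 3), 2.35-fold lower. NOD1, a sensor of peptidoglycan fragments, averaged 106 and 175 units, and CARD9, the adaptor of fungal lectin receptors, 230 and 318 units, and both were lower. Without Mac_Dex replicate 1 CARD9 lost its call, at -0.29 (limma adjusted p = 0.0745). Of 21 sensors and adaptors 12 were higher and 5 lower, with a median of 1.26, and after median-centring 9 were higher and 7 lower.

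Interferon-response genes were higher in the macrophages and also differed between the macrophage samples. MX1, an antiviral GTPase, had 2194 and 3979 units in Mac_Dex, against 104, 124 and 107 units in Mono_Dex. Both macrophage samples were far above the monocytes, at 27.7-fold (adjusted p = 3.88e-11), yet replicate 5 was well above replicate 1. IFI16, a nuclear DNA sensor, had 963 and 1459 units in Mac_Dex, against 71.9, 58.3 and 65.6 units in Mono_Dex. GBP1, a guanylate-binding protein induced by interferon gamma, had 145 and 270 units in Mac_Dex, against 1 unit in each Mono_Dex sample, at least 10.4-fold higher. Of 17 tested genes 15 were higher, with a median of 2.17, IRF5 was not called and IRF8 was lower. After median-centring 11 were higher and 2 lower. Mac_Dex replicate 5 exceeded replicate 1 by over 1.5-fold for 9 of the 17 genes and was under it by as much for none, with a median log2 gap of 0.60. For the other tested genes the count was 34 of 347, and over all tested genes the median gap was 0.11. The gap was thus not confined to the list. Outside it, CXCL1 had a log2 gap of 0.90, TNF 0.88, CCL4 0.70, IL32 0.70 and CCL20 0.67, picked after their values were seen. CXCL10 and IFIT2, chosen after their values were seen, had 74.8 and 266 units in replicate 1 and 205 and 679 units in replicate 5. The Mac_Vehicle samples were spread as well, with MX1 at 4217, 3599 and 2747 units. What sets these samples apart was not tested.

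**Figure D3:**
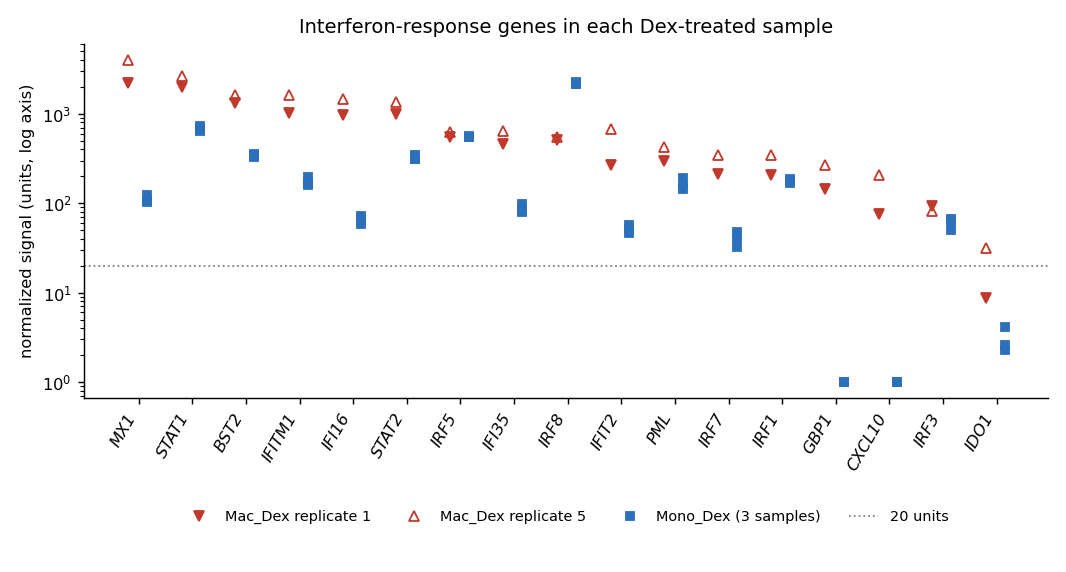
Normalized signal (log axis) of the 17 tested interferon-response genes in Mac_Dex replicate 1 (filled triangles), Mac_Dex replicate 5 (open triangles) and the 3 Mono_Dex samples (squares), with a dotted line at 20 units. Replicate 5 lies above replicate 1 for each gene other than IRF3, and IRF8 is the gene whose Mono_Dex samples are above both.

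Antigen presentation differed by class. HLA-DRA, the alpha chain of HLA-DR, had 32.1 and 30.1 units in Mac_Dex, against 154, 159 and 171 units in Mono_Dex. The macrophage samples lie just above 20 units, 5.19-fold under the monocytes (adjusted p = 8e-07). HLA-DPA1 and HLA-DQB1 were below 20 units on average in Mac_Dex, at 3.61 and 12.5 units, against 31.2 and 42.5 units in Mono_Dex. Without Mac_Dex replicate 1 HLA-DQB1 was at -1.09 and lost its call (limma adjusted p = 0.167). CTSS, the protease that degrades the invariant chain, had 14094 and 13832 units in Mac_Dex, against 3064, 3025 and 3027 units in Mono_Dex, 4.6-fold higher. It was the single higher gene of the 9 class II and loading genes, 5 of which were lower, with a median of -0.40. After median-centring 8 were lower, and without Mac_Dex replicate 1, 3 were. Class I and immunoproteasome genes counted 14 higher and 1 lower of 16, with a median of 0.93. They included TAP1, a peptide transporter subunit, at 6.34-fold, and PSMB9, an immunoproteasome subunit, at 3.56-fold. After median-centring 6 were higher and 5 lower, and after quantile normalization 6 were higher and 8 lower. HLA probes can share signal between near-identical genes, so single HLA values are uncertain.

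Fc receptors changed in both directions. FCER1G, the common signalling chain of activating Fc receptors, had 8736 and 7816 units in Mac_Dex, against 715, 793 and 903 units in Mono_Dex, 10.3-fold higher. FCGR2A, an activating IgG receptor, had 304 and 366 units in Mac_Dex, against 1029, 1024 and 1031 units in Mono_Dex, 3.07-fold lower. The probe FCGR2A/C, which also covers a close copy, was lower by a similar amount, 3.17-fold. FCGR3A/B averaged 73.0 and 2.47 units and was at least 3.65-fold higher. FCGRT, which recycles IgG, was 2.09-fold higher as deposited, kept that call under 2 of the 4 other scalings and turned sign under quantile normalization. The list counted 3 higher and 3 lower of 7, with a median of -0.66. FCGR1A/B, the third lower probe, lost its call without Mac_Dex replicate 1, at -0.42 (limma adjusted p = 0.251), and without Mono_Dex replicate 6, at -0.46 (adjusted p = 0.146).

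S100A9, S100A8, PTPN22, CTSG and some genes of progenitors and the granulocyte lineage were among those most reduced. Granule genes did not move as a group. Of 14 proteases, granule and effector proteins 9 were higher and 3 lower, and CTSC, a cathepsin of that list, was 4.86-fold higher. S100A9, a subunit of the calcium-binding alarmin calprotectin, had 23.3 and 33.1 units in Mac_Dex, against 411, 431 and 458 units in Mono_Dex. Its partner S100A8 had 8.60 and 7.27 units in Mac_Dex, against 237, 227 and 238 units in Mono_Dex. Both genes were near or below 20 units in the macrophages, and the ratios were 15.4-fold lower for S100A9 (adjusted p = 1.11e-10) and at least 11.7-fold lower for S100A8 (adjusted p = 8e-07). PTPN22, a tyrosine phosphatase of leukocytes, had 21.8 and 24.0 units in Mac_Dex, against 235, 205 and 218 units in Mono_Dex, 9.57-fold lower. CTSG, the granule protease cathepsin G, had 1307 and 1301 units in Mac_Dex, against 9222, 9102 and 9207 units in Mono_Dex. It stayed well above background in the macrophages at 7.04-fold less (log2 -2.81 ± 0.06 SE, adjusted p = 2.06e-14). KIT, the stem cell factor receptor, averaged 30.5 ± 8.03 units in Mac_Dex and 129 ± 5.49 units in Mono_Dex (SD, n = 2 and n = 3), and CSF3R, the receptor for granulocyte colony-stimulating factor, 150 ± 6.52 and 527 ± 40.2 units. Of 8 progenitor and granulocyte-lineage genes 6 were lower and ETS1 was higher, with a median of -0.99, and after median-centring 7 were lower.

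The promoters of the 4 genes with the largest folds lower are shown because PU.1, an ETS-family regulator of myeloid genes, binds sites with the core letters GAGGAA. They are RefSeq sequences (GRCh38.p14), 250 bases before to 50 bases after the first transcript start that the sequence table lists for the gene, read 5′ to 3′ on the gene's strand, with GAGGAA or its reverse complement in capitals. S100A9 is at chr1:153357604-153357903 on the plus strand, S100A8 at chr1:153391139-153391438, PTPN22 at chr1:113871663-113871962 and CTSG at chr14:24576201-24576500, the last 3 on the minus strand. The windows of S100A8 and PTPN22 lie at starts inside the annotated genes, which reach upstream to position 153422583 for S100A8 and 113871759 for PTPN22.
S100A9: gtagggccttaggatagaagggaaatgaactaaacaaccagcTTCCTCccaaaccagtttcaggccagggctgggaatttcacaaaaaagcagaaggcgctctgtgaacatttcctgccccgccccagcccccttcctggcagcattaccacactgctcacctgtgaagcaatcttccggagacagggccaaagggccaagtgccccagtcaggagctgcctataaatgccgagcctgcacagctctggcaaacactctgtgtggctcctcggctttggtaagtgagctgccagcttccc
S100A8: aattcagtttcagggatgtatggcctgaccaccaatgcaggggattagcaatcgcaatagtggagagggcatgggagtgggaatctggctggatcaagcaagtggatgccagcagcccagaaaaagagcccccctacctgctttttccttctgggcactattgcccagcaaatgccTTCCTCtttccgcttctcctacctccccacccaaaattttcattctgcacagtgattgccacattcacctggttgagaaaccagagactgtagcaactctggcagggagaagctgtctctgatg
PTPN22: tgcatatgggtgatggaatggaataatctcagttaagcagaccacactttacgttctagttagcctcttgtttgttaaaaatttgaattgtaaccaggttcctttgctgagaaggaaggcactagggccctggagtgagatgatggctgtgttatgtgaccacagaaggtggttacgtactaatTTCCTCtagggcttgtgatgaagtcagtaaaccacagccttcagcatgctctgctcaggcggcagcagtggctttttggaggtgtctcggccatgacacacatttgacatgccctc
CTSG: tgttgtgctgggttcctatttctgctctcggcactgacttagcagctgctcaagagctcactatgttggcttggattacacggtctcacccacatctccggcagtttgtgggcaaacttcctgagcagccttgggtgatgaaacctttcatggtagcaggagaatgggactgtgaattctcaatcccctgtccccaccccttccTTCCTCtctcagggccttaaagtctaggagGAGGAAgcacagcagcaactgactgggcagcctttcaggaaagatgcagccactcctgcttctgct
The letters start 208 bases before that start of S100A9, 74 bases before that of S100A8 and 66 bases before that of PTPN22, and CTSG holds them 46 and 16 bases before it. The 4 shown all hold the letters, but MAP4K1, CXCR2, KIT, IRF8, CSF3R and CCR2, also among the 15 largest folds lower, hold none. Of those 15 genes 11 were matched to a promoter, and 5 of the 11 hold GAGGAA. In all, 27.6% of 27305 RefSeq promoters of this length hold GAGGAA on either strand, and 35.1% of the 291 matched tested genes do. The share was 30.6% of 180 matched higher genes, 38.8% of 49 matched lower genes and 45.2% of 62 matched genes that were not called, so the lower genes do not stand apart from the uncalled ones. The AP-1 letters TGANTCA, a site type that PMA signalling is known to use, were in 6.67% of the higher, 6.12% of the lower and 7.76% of all promoters. The C/EBP letters TTGCNNAA were in 10.6% of the higher, 6.12% of the lower and 10.6% of all promoters. The glucocorticoid receptor letters ACANNNTGT were in 2.78% of the higher, 6.12% of the lower and 5.45% of all promoters. A match describes letters in the window, not binding.

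Transcription regulators and signalling genes changed in both directions. IRF8, which directs monocyte development, had 515 and 550 units in Mac_Dex, against 2125, 2170 and 2246 units in Mono_Dex, 4.1-fold lower (adjusted p = 8.72e-14). CEBPB, a regulator of macrophage inflammatory genes, had 6299 and 6774 units in Mac_Dex, against 720, 694 and 681 units in Mono_Dex, 9.36-fold higher. PPARG, a lipid-sensing nuclear receptor, averaged 820 ± 6.97 units in Mac_Dex and 120 ± 2.13 units in Mono_Dex (SD, n = 2 and n = 3), 6.85-fold higher. RUNX1, IKZF1 and TCF7, regulators of blood progenitors and lymphocytes, averaged 525, 131 and 16.2 units in Mac_Dex and 859, 226 and 50.8 units in Mono_Dex, and each was lower. Of 29 transcription regulators 19 were higher and 6 lower, with a median of 0.47 beside 0.75 over all tested genes. After median-centring 10 were higher and 16 lower. Among kinases, MAP4K1, which is found mainly in blood cells, had 51.3 and 45.2 units in Mac_Dex, against 250, 287 and 312 units in Mono_Dex. MAP4K4, its broadly expressed relative, averaged 4770 ± 440 units in Mac_Dex and 814 ± 25 units in Mono_Dex (SD, n = 2 and n = 3). Of 20 kinases and adaptors 14 were higher and 3 lower, with a median of 0.68, and after median-centring 6 were higher and 10 lower.

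The remaining lists are given by their counts and by how far centring moved them. Over all tested genes 62.6% were higher and 17.9% lower, with a median of 0.75. JAK-STAT genes counted 10 higher and 1 lower of 13, with a median of 1.15, and included SOCS1, a feedback inhibitor, at 4.87-fold, while CISH, another of that family, was lower at 6.46 and 30.8 units. After median-centring 7 were higher and 5 lower. NF-kB pathway genes counted 14 higher and 1 lower of 22, and after median-centring 7 were higher and 10 lower. Their median of 0.75 was that of all tested genes, so the list did not stand apart from the table. TNFAIP3, a deubiquitinase that limits the pathway, was 3.12-fold higher, and NFKBIZ, a nuclear cofactor, 6.32-fold higher. Complement genes counted 6 higher and 1 lower of 10, and after median-centring 2 were higher and 5 lower. CD59, which blocks the membrane attack complex, had 1223 and 1235 units in Mac_Dex, against 70.4, 78.5 and 80.2 units in Mono_Dex, 16.1-fold higher, and CFD, the alternative-pathway protease factor D, was 2.51-fold lower. Apoptosis and cell-cycle genes counted 8 higher and 4 lower of 20, with a median of 0.16, and after median-centring 4 were higher and 15 lower. CDKN1A, the p21 inhibitor that stops the cell cycle, had 3650 and 3861 units in Mac_Dex, against 329, 307 and 272 units in Mono_Dex, 12.4-fold higher, and the survival gene BCL2 averaged 241 and 344 units and was lower. Cytokine receptors counted 12 higher and 3 lower of 16, and TNF superfamily genes 8 higher and 1 lower of 12, with 9 and 6 still higher after median-centring. Effector proteins and proteases counted 9 higher and 3 lower of 14, among them CYBB, the catalytic subunit of the phagocyte oxidase, which averaged 3136 ± 106 units in Mac_Dex and 229 ± 14.7 units in Mono_Dex (SD, n = 2 and n = 3).

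**Figure D4:**
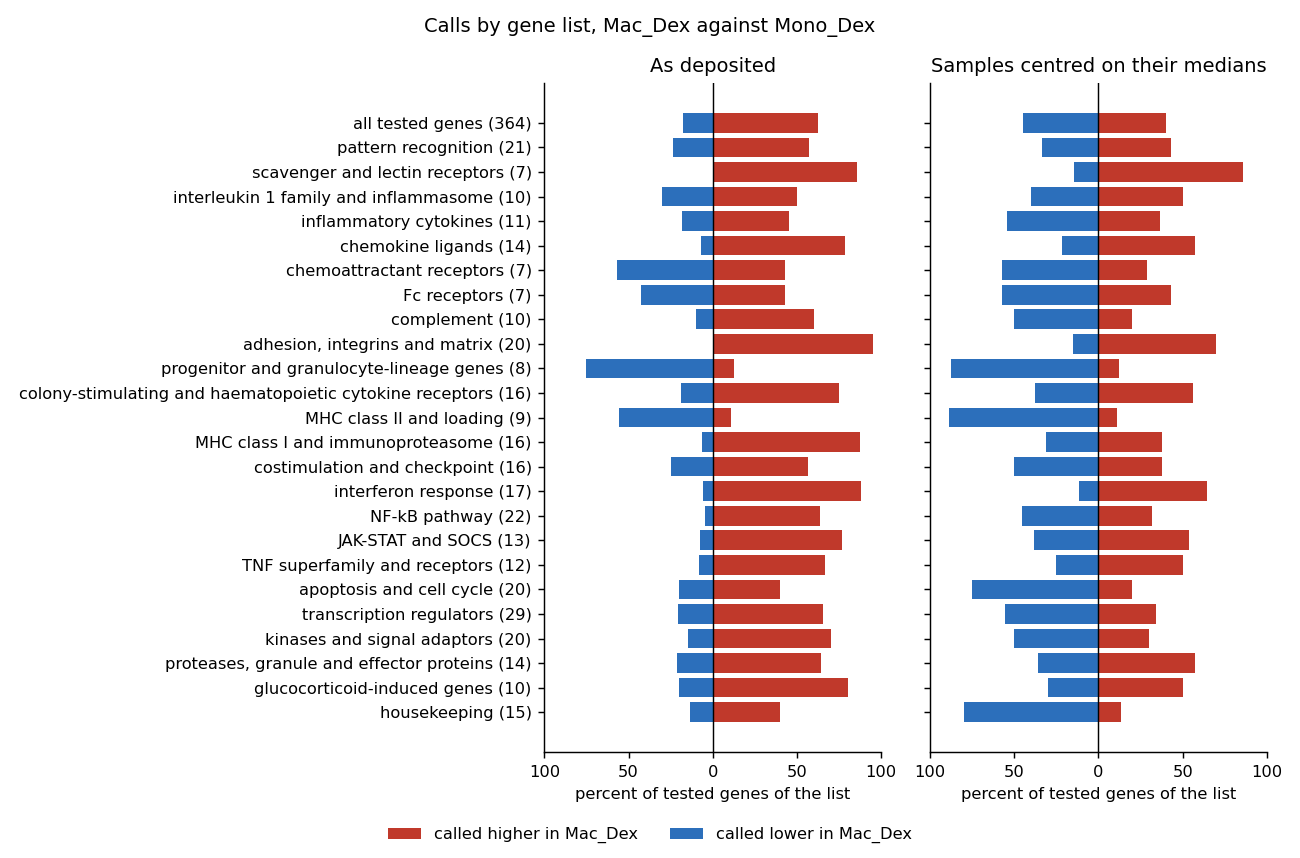
Percent of the tested genes of each list (number in brackets) called higher (to the right) or lower (to the left) in Mac_Dex than in Mono_Dex, as deposited and after each sample was centred on its median. Adhesion, scavenger receptor and interferon genes stay mainly to the right in both panels, class II and progenitor genes stay to the left, and the whole table and the housekeeping, apoptosis, complement, transcription regulator, kinase, NF-kB, costimulation and inflammatory cytokine lists change sides.

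Genes listed as glucocorticoid-induced were not equally high in the 2 Dex-treated states. FKBP5, which binds the receptor complex and is a standard marker of glucocorticoid action, had 38036 and 37307 units in Mac_Dex, against 24832, 24990 and 24903 units in Mono_Dex. The authors used this gene to leave out a macrophage sample, so its macrophage level is not independent of that choice. As deposited it was 1.51-fold higher in Mac_Dex (log2 0.60 ± 0.12 SE, adjusted p = 0.000497), but the sign turned to -0.23 after median-centring and to -0.22 with the authors' factor undone, and the call was lost after housekeeping scaling (0.32, adjusted p = 0.0749) and quantile normalization (0.17, adjusted p = 0.371). NFKBIA, the inhibitor of NF-kB, averaged 8150 ± 474 units in Mac_Dex and 5248 ± 146 units in Mono_Dex (SD, n = 2 and n = 3), and its direction also turned under 3 of the 4 other scalings. IRAK3, an inhibitor of Toll-like receptor signalling, was lower in the macrophages, with 510 and 536 units in Mac_Dex, against 630, 630 and 719 units in Mono_Dex (adjusted p = 0.00509). Of the 10 genes of the list tested 8 were higher and 2 lower, CXCR4 and IRAK3, while 62.6% of all tested genes were higher. The list median was 1.96, beside 0.75 over all tested genes, and after median-centring 5 were higher and 3 lower. Not all of the list rose with Dex in these macrophages. CDKN1A averaged 3755 units in Mac_Dex and 5782 units in Mac_Vehicle, and BCL6 382 and 747 units. CD163 averaged 653 and 177 units, and CEBPB 6536 and 2164 units, in that order.

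Most of the difference between the states was also present with vehicle. Among the genes higher with Dex, 212 of 228 were also called higher in Mac_Vehicle than in Mono_Vehicle, 14 were not called there and 2 were called lower. Among the genes lower with Dex, 56 of 65 were also called lower with vehicle, 8 were not called and 1 was called higher. With vehicle 84.9% of the genes tested were called in either direction. Across the 364 genes the log2 differences of the states with Dex and with vehicle, which share no sample, were correlated, at 0.90 for both Pearson r and Spearman rho. Genes are not independent replicates, and the macrophage samples had the higher summed signal with both agents.

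The difference itself was tested as the macrophage-monocyte log2 difference with Dex minus that with vehicle. It was called for 95 genes (26.1%), with 51 more positive with Dex (14%) and 44 more negative (12.1%). In 66 of them the macrophages were above the monocytes with both agents, in 13 below with both, and in 16 the signs were opposite. The macrophage sample that the authors left out had grouped with the vehicle macrophages, so none of the 95 calls is independent of that choice. Under all 4 other scalings together 15 of the 51 and 21 of the 44 kept their call. With the authors' factor undone only 15 positive and 24 negative differences were called over all tested genes, so that setting bounds these counts. The count of negative differences was 27 without Mac_Dex replicate 1 and the count of positive ones 34 without Mac_Dex replicate 5.

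The most positive differences belonged to genes above 20 units in Mac_Dex alone. Genes entered the test by their means in the 2 Dex groups, so these entered only through the group where they are high. A gene at 20 units only with vehicle could not enter, and 379 genes reached 20 units in any of the 4 groups, against 364 tested. The pattern is thus in part set by that filter, and the p-value below does not allow for it. GZMA, the serine protease granzyme A of cytotoxic lymphocytes, had 479 and 434 units in Mac_Dex, against 1, 1 and 3.26 units in Mono_Dex. With vehicle it had 1.21, 1.42 and 1.22 units in Mac_Vehicle, against 1, 1 and 2.61 units in Mono_Vehicle. Both Mac_Dex samples thus held it far above 20 units and none of the other 9 samples did, at least 22.8-fold above Mono_Dex, with a difference of differences of 7.57 (adjusted p = 1.78e-06). DPP4, the cell-surface peptidase CD26, had 176 and 194 units in Mac_Dex, against 1.88, 2.28 and 8.39 units in Mono_Dex, and averaged 1.33 units in Mac_Vehicle and 2.31 units in Mono_Vehicle. CD24, a surface glycoprotein chosen after its values were seen, followed the same pattern, with 120 and 141 units in Mac_Dex, against 1.15, 5.17 and 5.83 units in Mono_Dex. The lymphocyte markers CD3D, CD3E and CD8A stayed at or below 4.23 units in the samples where GZMA was measured, and the cytotoxic genes PRF1 and GZMB averaged 13.2 and 5.13 units in Mac_Dex. Other genes of the lymphocyte lists were measured there. NCAM1 averaged 2791 units in Mac_Dex and 1516 units in Mono_Dex, GNLY 799 and 528 units, IL7R 149 and 10.04 units, and CD244 138 and 221 units. Their part in the result was not tested.

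**Figure D5:**
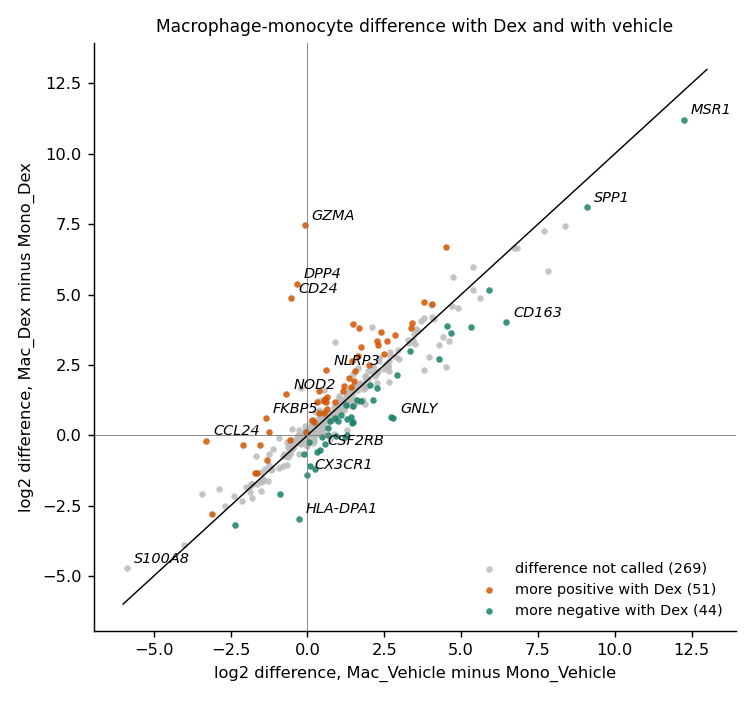
Log2 difference between macrophages and monocytes with Dex (vertical axis) against that with vehicle (horizontal axis) for the 364 tested genes, with the line of equal differences. Points are coloured by whether the difference of the 2 was called, and GZMA, DPP4 and CD24 stand far above the line at a vehicle difference near 0.

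For a first set of named genes the difference was more positive with Dex. CCL24, an eosinophil attractant, averaged 35.5 and 41.3 units in Mac_Dex and Mono_Dex, against 35.3 and 353 units in Mac_Vehicle and Mono_Vehicle, so the states were apart with vehicle and near each other with Dex (difference 3.10, adjusted p = 3.99e-06). NOD2, a sensor of muramyl dipeptide, averaged 90.4 units in Mac_Dex and 32.5 units in Mono_Dex, and 50.7 units in Mac_Vehicle and 77.6 units in Mono_Vehicle. Its states exchanged order between agents, with a difference of 2.14 (adjusted p = 0.00313), although the higher call with Dex held under 1 of the 4 other scalings. As deposited FKBP5 also exchanged order, at 488 units in Mac_Vehicle and 1237 units in Mono_Vehicle, with a difference of 1.96 (adjusted p = 1.75e-06). Its log2 difference with Dex turned to -0.23 after median-centring and to -0.22 with the authors' factor undone, so the exchange depends on the scaling. The authors left out a macrophage sample in part on this gene, so its test, above all, is not independent of that choice. NLRP3 was 4.96-fold higher in Mac_Dex than in Mono_Dex and 1.52-fold higher in Mac_Vehicle than in Mono_Vehicle, a difference of 1.70 (adjusted p = 2.7e-07). IL7R, the interleukin 7 receptor chain, averaged 149 and 10.04 units in Mac_Dex and Mono_Dex, and 295 and 90.8 units in Mac_Vehicle and Mono_Vehicle. Both states were thus lower with Dex. Its log2 difference was 3.81 with Dex and 1.69 with vehicle, with Mono_Dex under 20 units. IL8 was also lower in both states with Dex, and averaged 15256 and 2917 units in Mac_Vehicle and Mono_Vehicle. Its log2 difference was 3.66 with Dex and 2.38 with vehicle. IRAK3 and CFP, the complement regulator properdin, had differences of 1.21 and 1.38.

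For the other set the difference was more negative with Dex. CX3CR1, the fractalkine receptor, had 122 and 106 units in Mac_Dex, against 297, 299 and 307 units in Mono_Dex, and averaged 356 units in Mac_Vehicle and 359 units in Mono_Vehicle. The states overlapped with vehicle and were 2.64-fold apart with Dex, with a difference of -1.37 (adjusted p = 2.33e-05). CD83, a marker of activated antigen-presenting cells, averaged 134 units in Mac_Dex and 133 units in Mono_Dex, against 644 units in Mac_Vehicle and 266 units in Mono_Vehicle, a difference of -1.25. GNLY, the antimicrobial protein granulysin, averaged 799 ± 10.7 units in Mac_Dex and 528 ± 3.93 units in Mono_Dex (SD, n = 2 and n = 3), and 114 units in Mac_Vehicle and 15.9 units in Mono_Vehicle, a difference of -2.20 (adjusted p = 1.24e-05). Its higher call with Dex held under none of the 4 other scalings. BCL6, a transcriptional repressor, was 6.51-fold higher in Mac_Dex than in Mono_Dex and 19.8-fold higher in Mac_Vehicle than in Mono_Vehicle. KIT had a difference of -1.19, EOMES, a T-box regulator, one of -2.08, and TCF4, an E-protein, one of -1.26 that lost its call in 9 of the 11 fits that left out 1 sample, where it was -0.63 without Mac_Dex replicate 1 (limma adjusted p = 0.195). CD163 had a difference of -2.45 on the log2(value + 1) scale, but Mono_Vehicle was at 1 unit in each sample, and with a pseudocount of 20 the difference was 0.28. Its ratio was 16.6-fold with Dex and at least 8.85-fold with vehicle, so the direction of that difference depends on the pseudocount.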

How the data were processed

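The authors deposited 1 normalized, linear signal per probe for 11 nCounter samples, after quality control in nSolver per the labels. The sources used here do not state its version, its reference genes or how background was handled. The endogenous values of each sample lay on a regular grid (tolerance 0.1 step), from which its scaling factor was read. Negative controls reached at most 15.6 units, or 18.9 once multiplied by the sample factor, and 20 units was taken as the lowest usable mean. Whole counts were not recovered, so no count test was run.

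Groups came from the sample titles. The test was limma (version 3.58.1, R version 4.3.3), fitted to log2(value + 1) with 4 groups in 1 model, a variance trend and Benjamini-Hochberg adjustment over 364 genes. Folds are ratios of group means with means under 20 set to 20, given as "at least". Replicate r on the log2 scale was 0.990 in Mac_Dex and 0.992 to 0.994 in Mono_Dex. On simulated data with 364 genes, 94% of 50 genes changed by a log2 of 1 were recovered, with 3 false calls among 264. The simulation had independent noise and no shift in scale between samples, so it cannot show how often scaling gives false calls. Named genes were the 15 largest folds each way, up to 3 each way per list, and a fixed set of inflammatory, glucocorticoid and housekeeping genes. The 8 largest differences of differences each way were added, among called genes with at least 3 of 4 group means at 20 units or more. The comparison, lists and names were chosen with earlier results of these data known. Of the endogenous names, 565 are current symbols, 12 older and 17 unmatched. Mac_Dex and Mono_Dex share 0 replicate numbers, and same-numbered samples of other groups deviated with r from -0.43 to 0.18, so numbers were not taken as pairs. Alternatives were 4 other scalings, a pseudocount of 20, other filters, no variance trend, the 5 Dex samples alone, a replicate block, and leaving out each sample. Results for a few genes are not reported here.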

Additional observations from a re-analysis of the deposited data

Results flagged for a closer look

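The macrophage-monocyte difference with Dex differed from that with vehicle, by limma's test of the difference itself (adjusted p under 0.05), for the 47 genes given here, all picked by the rule for named genes, of 95 called over all genes tested. CD24, chosen after its values were seen, is not among the 47. Values are log2 differences with Dex minus with vehicle, on the log2(value + 1) scale, over 2 Mac_Dex samples and 3 samples in each other group.

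The difference was positive for these genes. It was 7.57 for GZMA, 5.73 for DPP4, 3.10 for CCL24, 2.50 for IL15, 2.21 for CSF1, 2.14 for NOD2 and 2.12 for IL7R. GZMA, DPP4 and IL15 had 3 of 4 group means under 20 units, CSF1 had 2 and IL7R had 1, so the size of those values depends on the pseudocount. Each of the genes just named entered the test through Mac_Dex alone. It was 1.96 for FKBP5, 1.70 for NLRP3, 1.38 for CFP, 1.28 for IL8, 1.21 for IRAK3 and 1.19 for NFKBIZ. Smaller values were 0.92 for MX1, 0.92 for CEBPB, 0.70 for CSF1R, 0.68 for MCL1, 0.61 for ITGA6, 0.60 for CD59, 0.44 for IL1RAP and 0.43 for TLR2. The least were 0.40 for SDHA, 0.38 for CCL5, 0.35 for CXCR4, 0.32 for CFD and 0.29 for CTSG. ITGA6 kept its call under 2 of the 4 other scalings.

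The difference was negative for the others. It was -2.67 for HLA-DPA1, -2.45 for CD163, -2.20 for GNLY, -2.08 for EOMES, -1.56 for BCL6, -1.42 for LTA, -1.37 for CX3CR1, -1.26 for TCF4 and -1.25 for CD83. HLA-DPA1 and LTA had 3 of 4 group means under 20 units. It was -1.19 for KIT, -1.05 for CDKN1A, -1.03 for MSR1, -1.002 for SPP1, -0.94 for CSF2RB, -0.89 for IKBKE, -0.85 for PTPN22, -0.77 for NFKBIA and -0.75 for IL1B. The least were -0.58 for TNFRSF1B, -0.57 for IL6R and -0.19 for FCGRT. MSR1 had 2 of 4 group means under 20 units, those of the monocytes, and CD163, GNLY, EOMES and IL1B had 1, so the size of their values depends on the pseudocount too. IL1B and FCGRT kept their call under 2 of the 4 other scalings. As deposited, NOD2, FKBP5 and CSF2RB were called in opposite directions with the 2 agents. A macrophage sample had been left out by the authors on FKBP5 and on its grouping with the vehicle macrophages, which bears on each difference given here. CSF2RB, a receptor chain for granulocyte-macrophage colony-stimulating factor, averaged 69.5 units in Mac_Dex and 98.1 units in Mono_Dex, against 183 units in Mac_Vehicle and 137 units in Mono_Vehicle. Without Mac_Dex replicate 1 its Dex difference was -0.21 and was not called (limma adjusted p = 0.289).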

How the results depend on the processing

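Genes higher in Mac_Dex numbered 145 after median-centring, 139 after quantile normalization and 129 with the authors' factor undone, against 228 as deposited. Genes lower numbered 164, 179 and 135 in that order and 98 after housekeeping scaling, against 65. With the factor undone the difference of differences was called positive for 15 and negative for 24 genes, against 51 and 44. The counts did not fall under the other scalings. They were 73 and 44 after median-centring, 58 and 55 after housekeeping scaling, and 67 and 56 after quantile normalization. With the replicate number as a block 41 genes were lower, and the difference was called for 28 and 18 genes. Leaving out 1 of the 5 Dex samples at a time gave 211 to 225 higher and 52 to 68 lower genes, and leaving out 1 of the 11 samples gave 34 to 62 positive and 27 to 47 negative differences, with 27 negative ones without Mac_Dex replicate 1.

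These log2 differences turned sign as samples were rescaled. After median-centring they were -0.033 for SDHA, -0.23 for FKBP5, -0.63 for TNF, -0.19 for NFKBIA, -0.67 for ABCF1, -0.81 for EEF1G, -0.69 for GAPDH, -0.53 for GUSB, -0.77 for HPRT1, -0.35 for OAZ1, -0.72 for POLR2A, -0.82 for RPL19 and -0.70 for TUBB. After housekeeping scaling they were -0.085 for TNF, -0.12 for ABCF1, -0.26 for EEF1G, -0.14 for GAPDH, -0.22 for HPRT1, -0.17 for POLR2A, -0.27 for RPL19 and -0.15 for TUBB. After quantile normalization they were -0.014 for FCGRT, -0.10 for SDHA, -0.64 for TNF, -0.49 for NFKBIA, -0.67 for ABCF1, -0.87 for EEF1G, -0.52 for GAPDH, -0.72 for GUSB, -0.96 for HPRT1, -0.94 for OAZ1, -0.73 for POLR2A, -1.07 for RPL19 and -0.87 for TUBB. With the factor undone they were -0.027 for SDHA, -0.22 for FKBP5, -0.63 for TNF, -0.18 for NFKBIA, -0.66 for ABCF1, -0.81 for EEF1G, -0.69 for GAPDH, -0.52 for GUSB, -0.76 for HPRT1, -0.34 for OAZ1, -0.71 for POLR2A, -0.81 for RPL19 and -0.69 for TUBB.

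With the replicate block EEF1G was at -0.0424 and RPL19 at -0.00297. Leaving out 1 Dex sample at a time gave -0.00856 to 0.039 for EEF1G, -0.0095 to 0.017 for RPL19, and -0.25 without Mac_Dex replicate 5 to 0.63 without Mac_Dex replicate 1 for TNF. With a pseudocount of 20 the difference of differences of CD163 was 0.28. Leaving out 1 of the 2 Mac_Dex samples assumes that the other varies like the remaining groups. The reference genes behind the deposited scale are unknown.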
